A study of Mus musculus with 8 samples.

Results

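The message levels of 10 genes of cap-binding translation initiation (Eif4e, Eif4e2, Eif4e3, Eif4enif1, Eif4ebp1, Eif4ebp2, Eif4g1, Eif4g2, Eif4g3 and Eif4a1) were compared between low salt and normal salt diets in the mouse left ventricle. Every non-control probe whose gene name on the array equals one of these symbols was taken, which gave 17 probes of the 39429 on the array, each present as 1 spot. The genes, 10 of 30199 gene names on the array, were chosen by their role with the measured diet differences of these same arrays in view, so their differences are given as a description, with standard errors and the value of each mouse, and without p-values. The animals were 8 C57Bl/6j males, mice of a common inbred strain, aged 16 weeks at death. The 4 low salt mice had eaten chow with 0.05% Na for 8 weeks, and the 4 normal salt mice had eaten chow with 0.4% Na for the same time. Septum, free wall and apex of the ventricle were taken from anaesthetised mice and homogenised together, and total RNA was hybridised to 4 Agilent 2-colour arrays, which read the brightness of each spot in a green dye (Cy3) and a red dye (Cy5). Each array held 2 mice of the same diet, mice 1 and 2 or mice 3 and 4, with mice 1 and 3 in Cy3 and mice 2 and 4 in Cy5. Diet therefore differed between arrays only.

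Translation of most messages starts when eIF4E, the protein of Eif4e, grips the methylated cap at the front end of the messenger RNA. eIF4E joins the scaffold eIF4G and the RNA helicase eIF4A in the eIF4F complex, which opens the leader of the message and brings in the small ribosomal subunit. The eIF4E-binding proteins and the transporter 4E-T, the product of Eif4enif1, occupy the same face of eIF4E as the scaffold does, and the kinase complex mTORC1 releases the binding proteins by phosphorylating them. In heart muscle this step is a known control point of protein synthesis during growth, and most of that control acts on proteins, which these arrays do not measure.

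The array design places 3 probes in Eif4e, and they read different stretches of the locus on the plus strand of chromosome 3 (mm9 build). The probe at array row 218 and column 4 matches chr3:138219236-138219295, and the probe at row 374 and column 29 matches chr3:138220427-138220486, 1191 bases further along and assigned by the design to the same RefSeq transcript. The probe at row 507 and column 44 matches chr3:138189716-138189775, lies 29520 bases from the nearest of the other two and was designed to a cDNA clone. The Eif4enif1 probe at row 124 and column 9 matches chr11:3144458-3144517 on the plus strand. The middle 30 bases (bases 16 to 45 of 60) of these probes, and of the Eif4e2 and Eif4e3 probes described below, are shown to record which stretch each one reads. Capitals mark the triplets TAA, TAG and TGA in any forward frame.
Eif4e, row 218, column 4: ccTAAcTAGaatTAGtatgtctgcctttgt
Eif4e, row 374, column 29: acatgtgggattcTAGTAGttgtatctatt
Eif4e, row 507, column 44: aaccaagagaaaatggtgggaggcgaaaag
Eif4enif1, row 124, column 9: gtacaTAAagTAActatcagtTAGgcttgt
Eif4e2, row 513, column 5: ctcccaacaccattatggaatacaaaactc
Eif4e3, row 190, column 48: aaacaggaagccaaatTAAtTAGtggtcag
Over its whole 60 bases, 0 of 3 forward frames were free of these triplets in the Eif4e probe at row 374 and in the Eif4enif1 probe, and 1 of 3 was free in the Eif4e probe at row 218, in the Eif4e probe at row 507 and in the Eif4e3 probe. In the Eif4e2 probe 2 of 3 frames were free. Among the tested 60-base probes of the whole array, 78.0% held at least 1 such triplet in the middle 30 bases and 19.9% held one in every forward frame. No exon or untranslated region was assigned to a probe here.

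Of the 17 probes, 12 were well above background in at least 4 of the 8 mice and were tested. The other 5 were Eif4e at row 507 (0 of 8 mice), Eif4e2 at rows 420 and 492 (2 and 1 of 8 mice), and Eif4g3 at rows 323 and 429 (3 and 0 of 8 mice). Every one of the 10 genes kept at least 1 tested probe. The levels below are normalised log2 intensities of single probes, and since brightness per molecule differs between probes, they are compared between mice and not between genes.

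The arrays were not even. For each spot, the median deviation of the surrounding tested spots (within 10 rows and 5 columns) was taken per mouse as the local trend, and its low salt minus normal salt difference ran from -0.34 to 0.62 over the array. Parts where it passed 0.2 in either direction held 10.2% of the 22977 tested probes, and 174 of the 189 probes past the threshold over the whole array (limma, Benjamini-Hochberg adjusted p under 0.05) stood there. Of the 1437 tested probes with a local difference above 0.2, 1298 lay in columns 1 to 14 and most of them lay between rows 109 and 283. Of the members, the strip held Eif4e at row 218 (local difference 0.47) and Eif4enif1 at row 124 (0.26). The other 10 tested member probes lay in even parts, Eif4e3 being the nearest to the limit with a local difference of 0.19. The limit concerns the diet difference alone, so the local trend could still differ between the arrays of a diet. The differences of the tested member probes are therefore also given with the local trend subtracted. Spot intensity had a median of 116 to 147 over the samples against a background of 15.5 to 33.5.

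**Figure D1:**
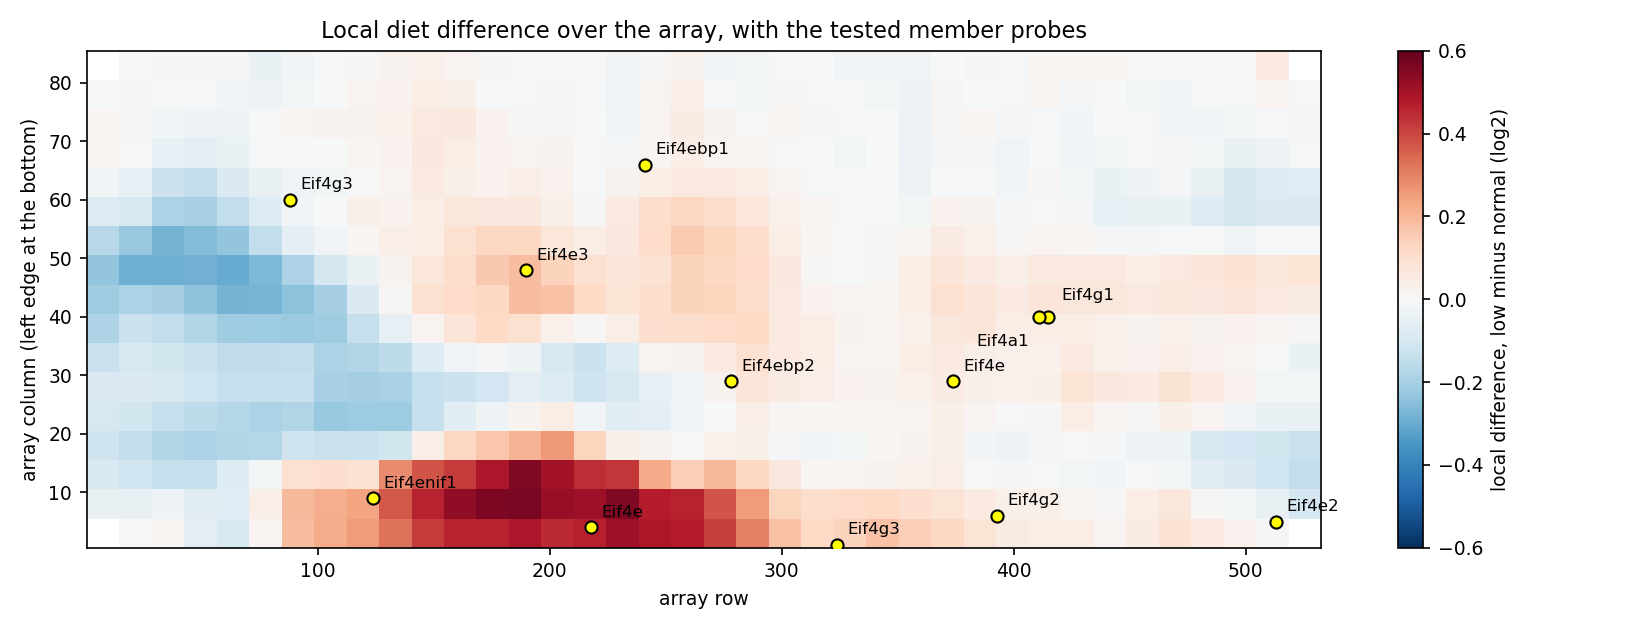
Local low salt minus normal salt difference (log2, colour) over the array, with rows along the horizontal axis and columns along the vertical axis, in blocks of 14 rows and 5 columns, and the 12 tested member probes as yellow points. The Eif4e probe at row 218 and the Eif4enif1 probe at row 124 lie in the red strip at the left edge, while the Eif4e probe at row 374 lies where the local difference was 0.05.

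Eif4e, the cap-binding subunit itself, gave a higher signal on low salt at both of its measured probes. The probe at row 218 read 12.16, 12.31, 12.00 and 12.29 in low salt mice 1 to 4, against 10.62, 10.97, 10.64 and 10.86 in normal salt mice 1 to 4. The lowest low salt mouse stood above the highest normal salt mouse by over 1 log2 unit. Group means were 12.19 ± 0.14 on low salt and 10.77 ± 0.17 on normal salt (SD, n = 4 each), a difference of 1.42 ± 0.10 (SE) or 2.67-fold, and the dyes gave 1.45 in Cy3 and 1.38 in Cy5. The unnormalised spot signal was 3359, 5005, 3798 and 6997 on low salt, against 1142, 2551, 1449 and 2305 on normal salt. The Cy5 mice (2 and 4) were brighter in it than the Cy3 mice of the same diet.

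Part of that difference was shared with the spots of other genes around it. The local trend at row 218 was 0.29, 0.24, 0.21 and 0.16 in the low salt mice, against -0.12, -0.15, -0.37 and -0.34 in the normal salt mice. With it subtracted, the Eif4e difference was 0.94 ± 0.09, or 1.92-fold. Among the 90 tested probes within 10 rows and 5 columns, the median diet difference was 0.45 and the range -0.34 to 1.51, 1 was at least as high as Eif4e, and 17 passed the threshold. How much of the remaining difference belongs to the uneven strip was not tested.

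The Eif4e probe at row 374, in an even part, showed a smaller difference of the same sign. It read 10.52, 10.54, 10.29 and 10.32 in the low salt mice, against 9.78, 9.94, 9.97 and 10.06 in the normal salt mice. Here too every low salt mouse lay above every normal salt mouse, though by a narrower margin. The means of 10.42 ± 0.13 on low salt and 9.94 ± 0.12 on normal salt differed by 0.48 ± 0.11, or 1.40-fold, with 0.54 in Cy3 and 0.43 in Cy5, and by 0.44 ± 0.08 with the local trend subtracted. This probe did not pass the adjusted threshold. Of its 111 tested neighbours, whose median difference was 0.05 1 was at least as high.

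The measured Eif4e probes thus gave 2.67-fold and 1.40-fold for the same gene. Taken within each mouse, the row 218 probe exceeded the row 374 probe by 1.64, 1.77, 1.71 and 1.97 log2 units on low salt, against 0.84, 1.03, 0.67 and 0.80 on normal salt. That gap separated the diets without overlap and averaged 1.77 ± 0.14 on low salt and 0.84 ± 0.15 on normal salt. With the local trend subtracted it was smaller on low salt, at 1.57 ± 0.17, and larger on normal salt, at 1.06 ± 0.13, still without overlap. Whether the probes read the same transcripts in these hearts was not tested. The third Eif4e probe was not well above background in any mouse, so no difference is given for it. RNA came from whole tissue, so a change in the number of cells of a type and a change in RNA per cell cannot be told apart. This holds for these and all later values.

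**Figure D2:**
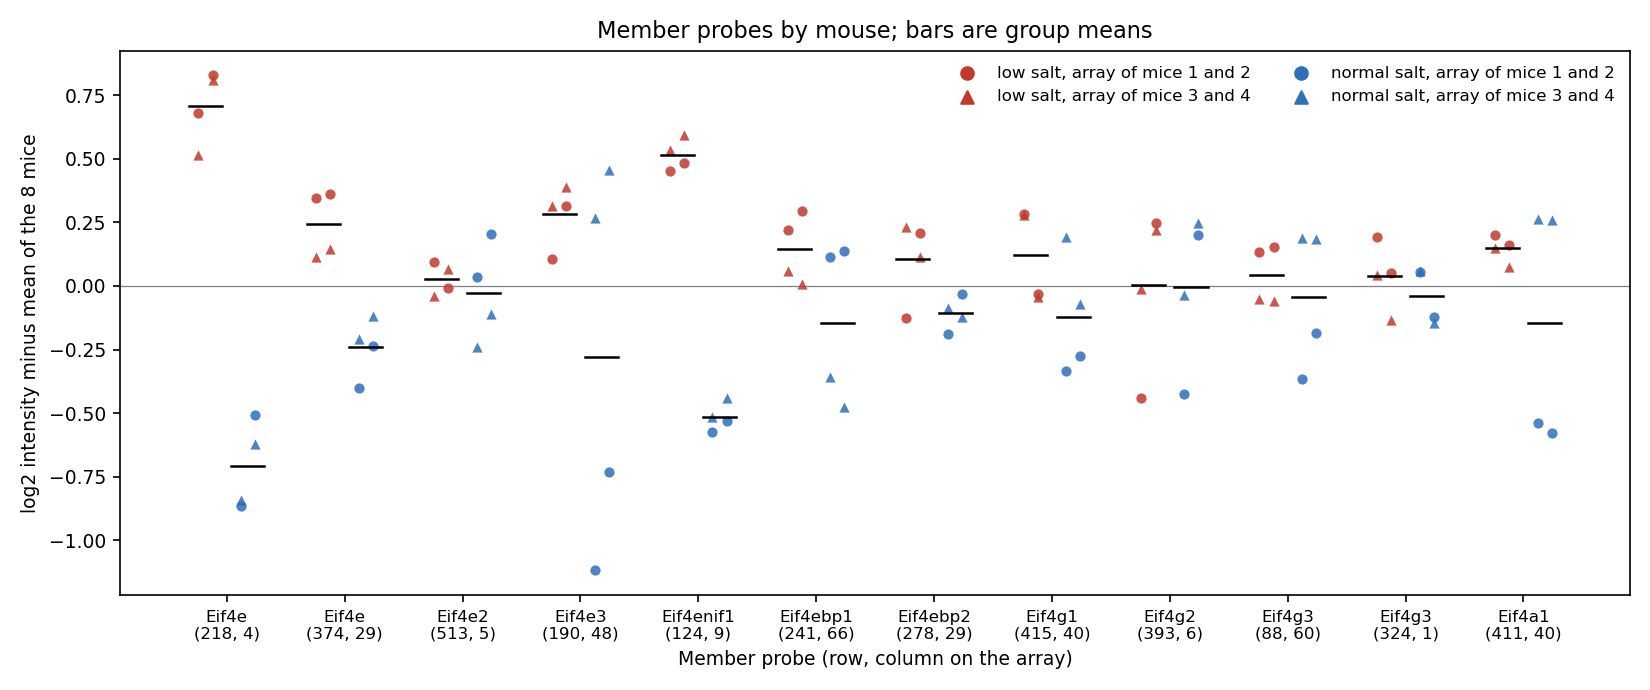
Log2 intensity of each tested member probe minus its mean over the 8 mice, for low salt mice (red, left of each pair) and normal salt mice (blue, right), with circles for the array of mice 1 and 2, triangles for the array of mice 3 and 4, and bars at group means. Both Eif4e probes and Eif4enif1 separate the diets, whereas Eif4e3 and Eif4a1 separate the normal salt arrays from each other.

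Eif4e2 encodes the homologue 4EHP, which binds the cap but not the eIF4G scaffold and takes part in silencing of messages. Its measured probe, at chr1:89122748-89122807 on the plus strand, read 10.59, 10.49, 10.45 and 10.56 in the low salt mice, against 10.53, 10.70, 10.25 and 10.38 in the normal salt mice. The groups overlapped fully. A difference of 0.06 ± 0.13 between 10.52 ± 0.06 on low salt and 10.46 ± 0.19 on normal salt was smaller than its standard error, and the dyes differed in sign, with 0.13 in Cy3 and -0.02 in Cy5. It was 0.07 ± 0.08 with the local trend subtracted, 0.21 ± 0.14 with the normal salt array of mice 1 and 2 left out and -0.09 ± 0.14 with that of mice 3 and 4 left out. A fit with an array left out keeps 1 array of that diet. Its standard error, here and below, therefore does not measure the spread between the arrays of that diet.

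Eif4e3 encodes the third cap-binding homologue of mammals. Its probe, at chr6:99575493-99575552 on the minus strand, read 9.76, 9.97, 9.97 and 10.05 in the low salt mice, against 8.54, 8.93, 9.93 and 10.11 in the normal salt mice. The low values belonged to normal salt mice 1 and 2, which shared an array, while normal salt mice 3 and 4 lay level with the low salt mice. The mean on the normal salt arrays was 10.02 for mice 3 and 4 and 8.73 for mice 1 and 2, a gap of 1.29, whereas the low salt arrays lay 0.14 apart. The diet difference of 0.56 ± 0.33 accordingly rested on 1 array: with the normal salt array of mice 1 and 2 left out it was -0.08 ± 0.13, and with the normal salt array of mice 3 and 4 left out it was 1.21 ± 0.15. Over all 8 mice it was 0.37 ± 0.23 with the local trend subtracted. That trend was -0.31 in both normal salt mice 1 and 2, against 0.12 and 0.13 in normal salt mice 3 and 4. With it subtracted, the normal salt arrays averaged 9.04 for mice 1 and 2 and 9.89 for mice 3 and 4. Part of the gap between these arrays was thus shared with the spots around Eif4e3.

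Eif4enif1 encodes 4E-T, which carries eIF4E into the nucleus and holds it in cytoplasmic granules of untranslated messages. Its probe read 9.40, 9.43, 9.49 and 9.54 in the low salt mice, against 8.37, 8.42, 8.43 and 8.51 in the normal salt mice. No mouse of either diet came near the other group. With means of 9.46 ± 0.06 on low salt and 8.43 ± 0.06 on normal salt, the difference was 1.03 ± 0.09 or 2.04-fold, and it was 1.04 in Cy3 and 1.02 in Cy5. The arrays within a diet differed by 0.10 on low salt and by 0.07 on normal salt.

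The Eif4enif1 spot also lay in the uneven strip, nearer to its border. Its local trend was 0.15, 0.14, 0.10 and 0.15 in the low salt mice, against -0.19, -0.20, -0.05 and -0.07 in the normal salt mice. Subtracting it left 0.77 ± 0.07, or 1.70-fold. The 116 tested probes around it had a median difference of 0.22 and a maximum of 1.08, 1 of them was at least as high as Eif4enif1, and 4 passed the threshold. Eif4enif1 has no other probe on the array, so no reading from an even part could be set beside it.

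The eIF4E-binding proteins, which block assembly of eIF4F until mTORC1 phosphorylates them, did not separate the diets. Eif4ebp1, at chr8:28385887-28385946 on the plus strand, read 14.33, 14.40, 14.17 and 14.12 in the low salt mice, against 14.22, 14.24, 13.75 and 13.63 in the normal salt mice. The lower values in the normal salt group were those of mice 3 and 4, the reverse of Eif4e3. The difference of 0.29 ± 0.17 was 0.02 ± 0.14 with the normal salt array of mice 3 and 4 left out and 0.56 ± 0.15 with that of mice 1 and 2 left out, and over all 8 mice it was 0.26 ± 0.16 with the local trend subtracted. Eif4ebp2, at chr10:60895379-60895438 on the minus strand, read 11.44, 11.78, 11.80 and 11.68 in the low salt mice, against 11.38, 11.54, 11.48 and 11.45 in the normal salt mice. Low salt mouse 1 lay inside the normal salt range, the other low salt mice above it, and the difference was 0.21 ± 0.14, or 0.17 ± 0.14 with the local trend subtracted.

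Among the scaffolds, Eif4g1, which carries the binding sites for eIF4E, eIF4A, eIF3 and the poly(A)-binding protein, differed by 0.24 ± 0.16. Its probe at chr16:20692815-20692874 on the plus strand read 14.46, 14.15, 14.46 and 14.14 in the low salt mice, against 13.85, 13.91, 14.37 and 14.11 in the normal salt mice. The diets overlapped, and the Cy3 difference of 0.35 was larger than the Cy5 difference of 0.13. The difference was 0.06 ± 0.12 with the normal salt array of mice 1 and 2 left out, 0.43 ± 0.17 with that of mice 3 and 4 left out, and 0.19 ± 0.13 over all 8 mice with the local trend subtracted. Eif4g2 encodes a scaffold that lacks the eIF4E-binding segment and serves initiation without eIF4E. At chr7:118216077-118216136 on the minus strand it read 12.23, 12.92, 12.66 and 12.90 in the low salt mice, against 12.25, 12.87, 12.64 and 12.92 in the normal salt mice. Its difference of 0.01 ± 0.17 was the smallest of the tested member probes (-0.04 ± 0.16 with the local trend subtracted), and same-numbered mice of both diets read nearly alike.

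Eif4g3, the paralogue of Eif4g1, had 2 tested probes, and the diets overlapped at both. The brighter one, at row 88 and column 60 (chr4:137762115-137762174, plus strand), read 10.10, 10.12, 9.91 and 9.90 in the low salt mice, against 9.60, 9.78, 10.16 and 10.15 in the normal salt mice, a difference of 0.09 ± 0.16, or 0.12 ± 0.09 with the local trend subtracted. Normal salt mice 1 and 2 were the lowest and normal salt mice 3 and 4 the highest of all 8, and the difference was -0.14 ± 0.13 with the normal salt array of mice 1 and 2 left out and 0.32 ± 0.14 with that of mice 3 and 4 left out. The dim one, at row 324 and column 1 (chr4:137682429-137682488), was well above background in 3 low salt mice and 1 normal salt mouse, and differed by 0.08 ± 0.09, or by -0.05 ± 0.10 with the local trend subtracted.

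Eif4a1, the helicase subunit of eIF4F, showed the same split of the normal salt arrays as Eif4e3. At chr11:69480486-69480545 on the minus strand it read 13.51, 13.47, 13.46 and 13.38 in the low salt mice, against 12.77, 12.73, 13.57 and 13.57 in the normal salt mice. Normal salt mice 3 and 4 were the highest and normal salt mice 1 and 2 the lowest of the 8. The difference of 0.29 ± 0.22 was -0.12 ± 0.12 with the normal salt array of mice 1 and 2 left out and 0.70 ± 0.12 with that of mice 3 and 4 left out. Over all 8 mice it was 0.24 ± 0.18 with the local trend subtracted.

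**Figure D3:**
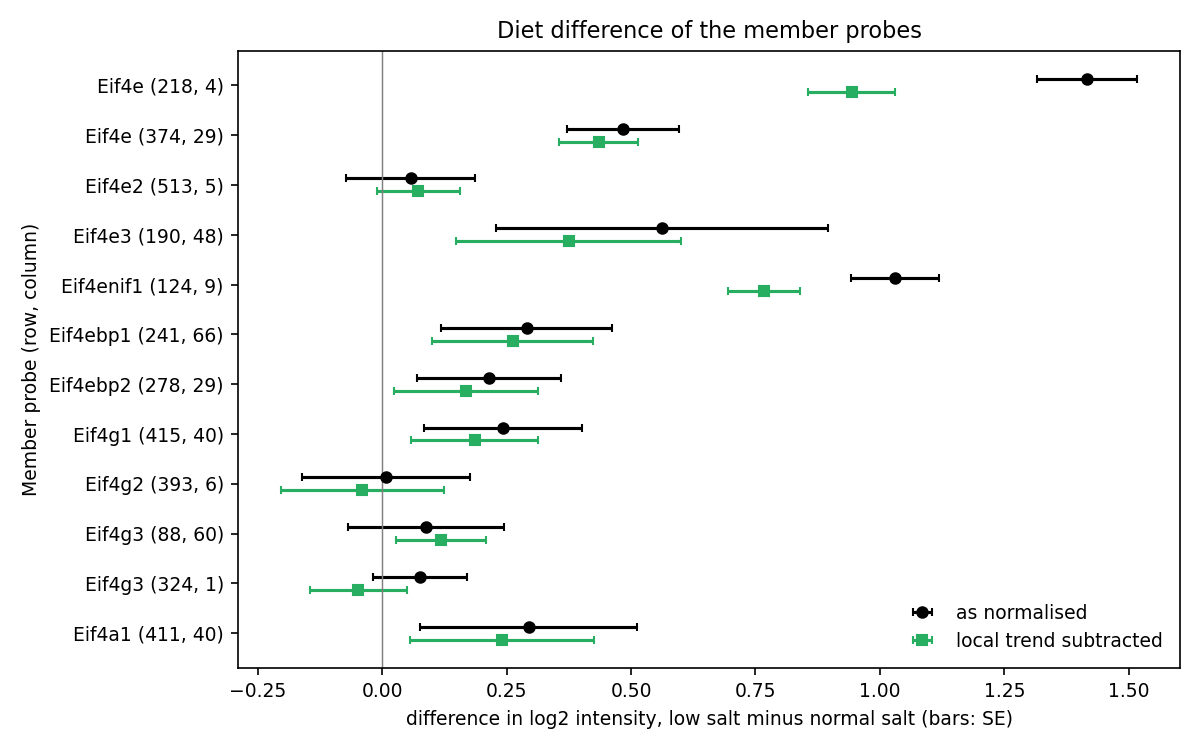
Low salt minus normal salt difference (log2) of the 12 tested member probes with standard errors, as normalised (black circles) and with the local trend subtracted (green squares). Subtraction moved Eif4e at row 218 to 0.94 and Eif4enif1 to 0.77 and left the Eif4e probe at row 374 at 0.44.

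Set beside the whole array, 2 of the 12 tested member probes passed the threshold, Eif4e at row 218 and Eif4enif1, both higher on low salt. Over all tested probes 0.788% passed in that direction, 0.0348% in the other and 0.823% in either. Both also passed after the local trend was subtracted from the whole table, when 0.165% of all probes passed as higher, 0.074% as lower and 0.239% in either direction. When the whole table was restricted to even parts, which leaves out those 2 spots, 0 of 20638 probes passed in limma, and 1685 had an unadjusted p under 0.05. The diets did not overlap, with low salt higher, at 3 of the 12 probes, against 7.76% of all tested probes, and low salt was lower without overlap at 4.86% of them. The difference was at least 1.5-fold in both dyes at 2 of 12, both higher, against 1.94% of all tested probes higher and 1.23% lower. All 12 differences were above 0, between 0.01 and 1.42 with a median of 0.27. With the local trend subtracted 10 of the 12 were above 0, Eif4g2 and the dim Eif4g3 probe being below, and the median was 0.21. As normalised, 52.3% of all tested probes lay above 0 with a median of 0.01. Since the genes were picked with this contrast in view, nothing is read from these shares.

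The wider initiation machinery was followed through 75 further genes in 4 roles, of which 74 had a tested probe (110 probes). In limma 0 of these probes passed the adjusted threshold in either direction, and 14 had an unadjusted p under 0.05, a limit that 11.2% of all tested probes passed. Differences were above 0 at 64 probes and below 0 at 46, with a median of 0.05. Helpers of the cap complex had a median of 0.12 over 18 probes, repressors and other cap-bound partners 0.00 over 23, kinases and the mTOR pathway -0.02 over 29, and the other initiation factors 0.10 over 40.

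The probes closest to the threshold were those of Eif3m, a subunit of eIF3, and Mknk2, a kinase that phosphorylates eIF4E. Eif3m read 12.78, 13.02, 12.93 and 12.92 in the low salt mice, against 12.34, 12.30, 12.37 and 12.33 in the normal salt mice, a difference of 0.57 ± 0.11 (limma, Benjamini-Hochberg adjusted p = 0.0683). Mknk2 read 14.35, 14.35, 14.31 and 14.29 in the low salt mice, against 13.69, 13.91, 13.63 and 13.51 in the normal salt mice, a difference of 0.64 ± 0.13 (limma, Benjamini-Hochberg adjusted p = 0.0766). The groups did not overlap at either of these probes. Of the 110 probes of the wider list, 10 were higher and 7 lower on low salt without overlap, against 7.76% and 4.86% of all tested probes. The Eif3m and Mknk2 spots both stood in the uneven strip, Eif3m at row 114 and column 9 and Mknk2 at row 188 and column 6. With the local trend subtracted, Eif3m kept 0.36 (adjusted p = 0.212) and Mknk2 0.11 (adjusted p = 0.619). A dimmer Mknk2 probe at row 276 and column 34 differed by -0.36 ± 0.52. With the mouse number as a replicate block in place of dye and array, the limma adjusted p was 0.0177 for Eif3m, 0.0168 for Mknk2 and 0.0467 for Mlst8. That fit takes the mice of an array as independent, although diet differed between arrays only. Its p-values therefore take no account of the spread between arrays.

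In each role the 2 probes with the smallest p were looked at, whatever their sign. Mlst8, a subunit of both mTOR complexes, differed by -0.44 ± 0.12 (limma, Benjamini-Hochberg adjusted p = 0.188), or by -0.28 with the local trend subtracted. Eif3b, another eIF3 subunit, differed by 0.29 ± 0.09 (adjusted p = 0.288), or by 0.15 with the local trend subtracted. Eif4b, which stimulates the eIF4A helicase, differed by 0.51 ± 0.19 at its brightest probe (adjusted p = 0.361) and by 0.34 ± 0.30 and 0.13 ± 0.13 at the others. The brightest Eif4b probe read 12.56, 12.62, 12.36 and 12.31 in the low salt mice, against 11.60, 11.69, 12.20 and 12.32 in the normal salt mice, so the low values were again those of normal salt mice 1 and 2. Its difference was 0.21 ± 0.15 with that array left out and 0.82 ± 0.15 with the normal salt array of mice 3 and 4 left out. Pabpc1, the poly(A)-binding protein that ties the message tail to eIF4G, differed by -0.21 ± 0.09 (adjusted p = 0.455). Gigyf1, a partner of 4EHP in silencing, differed by -0.43 ± 0.18 at row 62 (adjusted p = 0.428), where the local difference was -0.25, and by 0.27 ± 0.14 at its other probe at row 447. At row 62 it was -0.18 with the local trend subtracted and -0.22 ± 0.16 with the low salt array of mice 1 and 2 left out. Dcp1a, a cofactor of the decapping enzyme that removes caps, differed by -0.54 ± 0.23 (adjusted p = 0.445). It read 6.86, 7.12, 7.77 and 7.76 in the low salt mice, against 7.76, 8.12, 7.93 and 7.87 in the normal salt mice, so low salt mice 1 and 2 stood below the other 6. The Dcp1a difference was -0.15 ± 0.14 with the low salt array of mice 1 and 2 left out and -0.93 ± 0.13 with that of mice 3 and 4 left out.

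**Figure D4:**
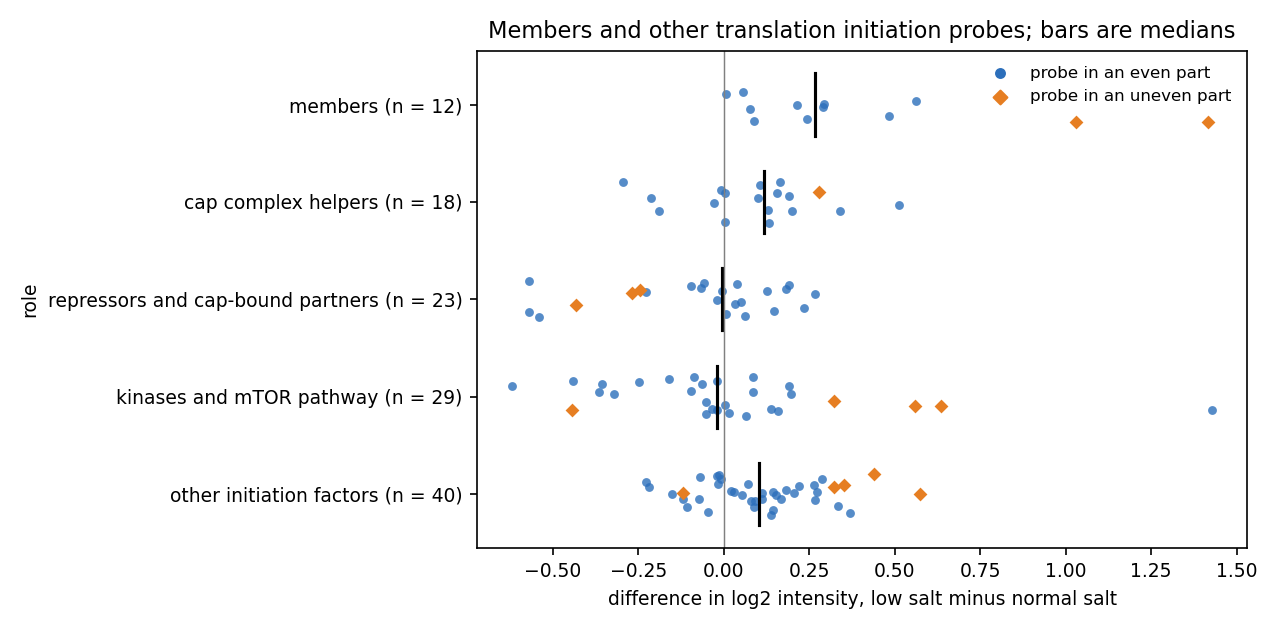
Low salt minus normal salt difference (log2) of the 12 tested member probes and of the 110 probes of the other initiation genes by role, with black bars at medians, blue points for probes in even parts and orange diamonds for probes in uneven parts. The 2 orange member points are Eif4enif1 (1.03) and Eif4e at row 218 (1.42), and the blue point at 1.43 among the kinases is Akt1s1.

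The genes whose values over the 8 mice were most like those of Eif4e and Eif4enif1, with the dye effect removed, were looked up with their places on the array. For Eif4e at row 218 they were Ago4 (Pearson r = 0.998), Sbds, Tnfaip1, Slc25a46 and Zfp689 (r = 0.996), at rows 163 to 224 and columns 3 to 12, with differences of 0.89 to 1.37 and local differences of 0.45 to 0.56. For Eif4enif1 they were Smndc1 (r = 0.998), Lin37, Tm9sf3, Dnajc5 and Frmd4a (r = 0.996), at rows 164 to 220 and columns 8 to 14, with local differences of 0.52 to 0.57. All 10 of these probes stood in the uneven strip that both members share with them. For the Eif4e probe at row 374, outside the strip, they were Zmym5 (r = 0.992), Stk4, Cc2d1b, Pde1a and Git1 (r = 0.989). Of these, Zmym5, Stk4 and Cc2d1b had local differences of 0.31 to 0.40, while Pde1a and Git1 had -0.12 and -0.01. Each r is a description over 8 mice that share 4 arrays and differ by diet.

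The tissue label was checked against marker genes. All 6 cardiomyocyte markers listed for the ventricle (Myl2, Myl3, Myh6, Actc1, Tnnt2 and Tnni3) were measured. Their summed level on the log2 scale was 20.27 to 21.03 in the low salt mice, against 20.42 to 21.24 in the normal salt mice. Whether these 6 genes tell ventricle from atrium was not tested. All 4 atrial markers (Myl4, Myl7, Sln and Nppa) were measured too, at 15.73 to 16.15 on low salt, against 14.70 to 17.04 on normal salt. Their median difference was -1.52, with Myl4 at -1.97, Myl7 at -1.07 and Sln at -2.16 but Nppa at 0.39, so the sum did not show the lower means of the first 3. The diets overlapped at all 4, and 0 of them passed the adjusted threshold. Sln, for example, read 8.79, 12.07, 10.41 and 9.83 in low salt mice 1 to 4, against 10.17, 12.42, 13.82 and 13.36 in normal salt mice 1 to 4. At all 4 atrial markers, normal salt mice 3 and 4, which shared an array, read above normal salt mice 1 and 2. The summed level of the 3 macrophage markers (Cx3cr1, Csf1r and Adgre1) was 12.54 to 13.09 on low salt, against 12.26 to 12.49 on normal salt, without overlap. Low salt was higher without overlap at 7.76% of all tested probes. The brightest macrophage probe, of Csf1r, read 12.32 to 12.91 on low salt, against 12.10 to 12.31 on normal salt. The other Csf1r probes and the Adgre1 probes overlapped, and those of Cx3cr1 did not. Of the 3 markers, 0 passed the adjusted threshold. The 4 endothelial markers gave 13.47 to 13.81 on low salt, against 13.45 to 13.82 on normal salt, and the 3 fibroblast markers 14.84 to 16.01, against 15.80 to 16.45. These sums hide single genes. Cdh5 differed by -0.25, Pecam1 by -0.01, Tek by -0.71 and the Kdr probes by -0.11 and 0.22. Among the fibroblast markers, Col1a1 differed by 0.33, Pdgfra by -0.10 and Dcn by -0.61. The measured blood marker, Hba-a1, read 17.03 to 17.20 on low salt, against 17.07 to 17.70 on normal salt. In these lists, 0 markers passed the adjusted threshold. The part of any cell type in the differences above was not tested.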

How the data were processed

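Spot and background intensity per channel came from the deposited scanner tables, made by the authors with Agilent Feature Extraction 11.5.1.1 (protocol GE2_1105_Oct12, mm9 design), per the file headers. Both samples of an array carry identical tables, and each mouse was read from its own dye. The deposited value table holds a ratio to each sample's median (all medians 1); its order of rows is unknown here, so it was not used for any gene. In limma 3.58.1 under R 4.3.3, normexp (offset 50) took the background from the mean signal, loess normalised within arrays and Aquantile between them, and log2 values followed. Normexp was fitted on spots without an outlier flag, and flagged backgrounds took the channel's median. Control and flagged spots were left out, and the spots of each probe were averaged.

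The 22977 of 39429 probes well above background in at least 4 of 8 mice entered 1 model (fixed terms for diet and dye, a random block for array with a correlation of 0.55, empirical Bayes moderation). The p-values were 2-sided, adjusted after Benjamini-Hochberg over all tested probes and called under 0.05. Each difference is low salt minus normal salt. The number of arrays limits the precision. The genes, the lists and the even limit of 0.2 were chosen with earlier results of these data known. Named were every member probe, in each role of the wider list the 2 probes with the smallest p, and the 5 named genes most like each tested Eif4e and Eif4enif1 probe.

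Same-numbered mice of the diets deviated together (r of 0.31, 0.14, 0.16 and 0.20 for numbers 1 to 4), but the number also marks the dye, and with dye removed r was 0.09, 0.03, 0.14 and -0.01. The fit with the number as a replicate block leaves out the array block, and so takes the mice of an array as independent. It gave 684 higher and 235 lower probes, against 181 and 8 with array as a block, and its calls are given beside the genes they touch. The alternatives were other background corrections, normalisations, filters, blocks and dyes, subtraction of the local trend, even parts alone, and leaving out each mouse or array.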

Additional observations from a re-analysis of the deposited data

How the results depend on the processing

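The counts of probes past the threshold depended on the processing, while the differences of both Eif4e probes and of Eif4enif1 stayed above 0 in all 27 alternatives that held them, at 0.94 to 1.46 for Eif4e at row 218, 0.37 to 0.60 for Eif4e at row 374 and at least 0.77 for Eif4enif1. Against 181 higher and 8 lower probes, the scanner's processed signal gave 39 and 5, subtraction of the local trend 38 and 17, and a smaller window for that trend 47 and 29. The replicate block gave 684 and 235, with 3 genes of the wider list (Eif3m, Mknk2 and Mlst8), and no array block gave 615 and 186, with the same 3. Both fits leave out the array term, so they take the mice of an array as independent, and the replicate block also replaces the dye term. The fit with no array block differs from the main fit in nothing else. For the replicate block, the share of each change in the higher counts was not tested. In limma 0 probes passed, hence 0 members, without normalisation between arrays (972 at an unadjusted p under 0.05), with each array averaged (1993), in Cy3 samples alone (2324), in Cy5 samples alone (1579) and in even parts alone (1685), the last of which leaves out Eif4e at row 218 and Eif4enif1. Averaged arrays and single dyes leave 2 values per diet, against 4 in the main fit. The Eif4e probe at row 218 and Eif4enif1 passed in 23 of 27 alternatives and the Eif4e probe at row 374 in 2 of 27, with no array block and with the low salt array of mice 3 and 4 left out. Leaving out 1 mouse at a time gave 72 to 122 higher and 1 to 30 lower probes and 0 to 1 genes of the wider list, the 1 being Mknk2 without normal salt mouse 2 (adjusted p = 0.0499, limma). With the normal salt array of mice 1 and 2 left out, the lower count was 65, with 2 genes of the list (Mknk2 and Sesn3). With that of mice 3 and 4 left out, it was 63, with 1 gene of the list (Akt1s1) and 4 member probes, Eif4e3 and Eif4a1 being added. With the low salt array of mice 1 and 2 left out, the higher count was 85, with 12 lower. With that of mice 3 and 4 left out, the counts were 577 and 825, with 7 genes of the list, 6 lower (Zfp598, Cyfip1, Dcp1a, Rheb, Sesn1 and Rptor) and Eif3m higher. The cause of these shifts was not tested. Each fit with an array left out keeps 1 array of that diet, so its calls take no account of the spread between that diet's arrays. The differences of Eif4e2, Eif4e3, Eif4g2, both Eif4g3 probes and Eif4a1 took either sign over the alternatives. No alternative moved the median of all probes by over 0.1. Each diet had 2 arrays, and 5 of the 17 member probes were too dim to compare.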

Other observations

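Akt1s1, which encodes an inhibitory subunit of mTORC1, showed the split between the normal salt arrays that was seen for Eif4e3 and Eif4a1. It read 8.87, 9.02, 8.98 and 8.82 in the low salt mice, against 5.89, 6.29, 8.87 and 8.92 in the normal salt mice, and was well above background in 4 low salt and 2 normal salt mice. The difference was 1.43 ± 0.70 (limma, Benjamini-Hochberg adjusted p = 0.490) and 2.83 with the normal salt array of mice 3 and 4 left out. Its spot, at row 374 and column 41, lay in an even part, with a local difference of 0.09. Akt1s1 was named after its values were seen.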
